A study of Mus musculus with 12 samples.

Results

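Cytochrome P450 enzymes and glutathione transferases are the enzymes with which tissues oxidise foreign compounds and then couple the products to glutathione. The genes described are 9 of these, Cyp2b10, Cyp1a1, Cyp1b1 and Cyp4b1 among the P450 genes and Gsta3, Gsta4, Gstm1, Gstm2 and Gstt1 among the glutathione transferase genes, out of 18193 genes read on the arrays. All 9 were measured. The set was chosen by name with values of these arrays in view, because Cyp2b10 and Gsta3 were much lower at week 3 than in control, so what the set does at week 3 is given as a description, with no p-value. Each gene was read from the probe set (a group of short probes to 1 transcript) that carries its symbol alone and has the highest mean over the 12 arrays.

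Endothelial cells (ECs) were sorted from whole lungs of female NSG mice, an immunodeficient strain in which human tumour cells grow. Mice of 6 to 8 weeks received MDA231-LM2 cells, a lung-metastatic derivative of the human breast cancer line MDA-MB-231, into the tail vein, and lungs were taken 1, 2 or 3 weeks later, with age-matched healthy NSG lungs as control. The sort kept CD31+ cells and discarded those with blood cell (CD45, CD11b), epithelial (EpCAM) or fibroblast and mural (CD140a, CD140b) surface markers and the GFP-labelled cancer cells. Each of the 4 groups has 3 arrays that the labels call biological replicates, all from 1 mouse strain and 1 cancer cell line, and the sort takes ECs of the whole lung, so ECs within and away from metastases are mixed. Values are log2 signals, in which 1 unit is a doubling, and all array medians lay between 8.12 and 8.13. The arrays carried strong signal of Pecam1, the gene of CD31, at 13.4 to 13.5 in every group, and of Cdh5 (VE-cadherin) at 13.2 to 13.6, but genes of cells that the sort should have removed were also bright: in control arrays Sftpc, the surfactant gene of alveolar type 2 cells, read 13.5 and Pdgfra, the gene of CD140a, read 11.82 to 11.99. These markers and the RNA-quality probe sets differed between groups, and their values are given with the results they accompany.

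In this pathway a P450 inserts oxygen into a lipid-soluble compound, and a transferase then joins the reactive product to glutathione, which makes it soluble and less harmful. Several of the genes are induced through ligand-activated receptors: Cyp1a1 and Cyp1b1 through the aryl hydrocarbon receptor (Ahr), which dimerises with Arnt on DNA, and Cyp2b10 through the constitutive androstane receptor (Nr1i3), while transferase genes of the alpha and mu classes respond to Nfe2l2, the factor that binds antioxidant response elements. The lung is one of the main sites of P450 expression outside the liver, with much of it in the secretory cells of the airway.

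Because Cyp2b10 and Gsta3 were lowest at week 3, and because Cyp1a1 and Cyp1b1 share a receptor but ran apart over the weeks, the RefSeq promoter windows of these 4 genes are shown (build GRCm38.p6, 250 bases before to 50 bases after the start, written 5′ to 3′ on the strand of the gene). Capitals mark the letters of 5 motifs searched on both strands: GCGTG, the core bound by Ahr with Arnt; TGACNNNGC, the core of the antioxidant response element; AGGTCA, a nuclear receptor half-site; TTGCGCAA, a C/EBP site; and TATAAA, the TATA box. A match is a description of the letters, not a measured binding site.
Cyp2b10, chr7:25897408-25897707, plus strand: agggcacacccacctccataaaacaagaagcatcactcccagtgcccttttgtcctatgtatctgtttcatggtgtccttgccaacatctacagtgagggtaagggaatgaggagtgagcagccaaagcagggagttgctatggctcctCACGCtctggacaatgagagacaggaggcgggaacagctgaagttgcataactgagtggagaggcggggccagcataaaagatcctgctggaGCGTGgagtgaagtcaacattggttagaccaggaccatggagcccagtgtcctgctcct
Gsta3, chr1:21240335-21240634, plus strand: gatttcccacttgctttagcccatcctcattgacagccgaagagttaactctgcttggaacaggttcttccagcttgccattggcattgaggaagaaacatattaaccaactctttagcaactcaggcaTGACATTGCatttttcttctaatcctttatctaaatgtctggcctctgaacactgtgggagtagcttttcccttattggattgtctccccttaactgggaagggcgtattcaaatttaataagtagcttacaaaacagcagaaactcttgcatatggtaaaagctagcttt
Cyp1a1, chr9:57697363-57697662, plus strand: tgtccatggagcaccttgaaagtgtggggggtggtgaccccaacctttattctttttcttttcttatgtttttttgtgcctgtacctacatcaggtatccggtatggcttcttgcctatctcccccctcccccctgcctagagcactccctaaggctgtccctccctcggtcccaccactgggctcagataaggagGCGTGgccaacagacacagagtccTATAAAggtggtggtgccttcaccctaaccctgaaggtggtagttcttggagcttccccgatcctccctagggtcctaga
Cyp1b1, chr17:79715012-79715311, minus strand: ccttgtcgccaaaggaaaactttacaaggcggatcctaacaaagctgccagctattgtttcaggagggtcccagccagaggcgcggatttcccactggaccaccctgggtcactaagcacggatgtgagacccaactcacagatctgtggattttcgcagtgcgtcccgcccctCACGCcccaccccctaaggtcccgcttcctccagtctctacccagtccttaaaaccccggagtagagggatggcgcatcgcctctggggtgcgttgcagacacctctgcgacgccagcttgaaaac
The Cyp2b10 window held GCGTG at bases 150 to 154 (on the opposite strand) and 242 to 246, counted from the first base of the window, and the Cyp1a1 window held it at bases 197 to 201, upstream of a TATAAA at 221 to 226. The Cyp1b1 window held 1 GCGTG, at bases 175 to 179 on the opposite strand. The Gsta3 window held 1 TGACNNNGC, at bases 130 to 138, and none of the other motifs. No matches overlapped each other in these windows. Over all 32851 windows of the same table, GCGTG occurred in 32.4%, TGACNNNGC in 12.4%, AGGTCA in 16.3%, TTGCGCAA in 0.183% and TATAAA in 13.6%, so a single GCGTG is a common string. Windows existed for 8 of the 9 genes: those of Cyp4b1, Gstm2 and Gstt1 held none of the motifs. Gstm1 has 2 overlapping windows on chromosome 3, which share 1 and the same GCGTG, and the downstream one also held AGGTCA and TATAAA.

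Cyp2b10, the mouse P450 best known for induction by phenobarbital-like drugs, was high in all control arrays and low in all week 3 arrays. Its control arrays read 9.95, 9.85 and 9.94 and its week 3 arrays 7.84, 7.84 and 7.64. Week 1 arrays read 7.76, 8.50 and 8.75. Week 2 arrays read 8.58, 9.89 and 7.90, so that replicate 2 lay at the control level and replicate 3 at the week 3 level. Control did not overlap with week 1 or week 3, and it overlapped with week 2 through replicate 2. The week 3 mean was 2.14 ± 0.11 (log2, SE) below control, a 4.41-fold lower signal, and this is the value that chose the gene. The week 1 mean was already 1.58 ± 0.24 lower (log2, SE), and the week 2 mean was 1.12 ± 0.45 lower, with both weeks read against the same control arrays as week 3. Week 2 replicate 2 decided the week 2 value: without it week 2 was 1.68 below control on the log2 scale, without replicate 3 it was 0.68 below, and week 2 against week 1 turned from 0.45 to -0.10. In order of group means, control was followed by week 2, week 1 and week 3, and of these neighbours none was separated from the next by its range of arrays. Both other probe sets of the gene showed the same picture, with week 2 replicate 2 at 9.80 and 10.01 and week 3 lower than control by 2.26 and 2.31 on the log2 scale, although their names end in _s_at, the mark of probes that may match related transcripts.

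Gsta3, an alpha class transferase that in mice protects against aflatoxin, was lower in every array of injected lungs than in every control array. Control arrays read 10.93, 10.68 and 10.19. Week 1 arrays read 8.84, 9.05 and 9.38, and week 2 arrays read 9.77, 9.26 and 9.50. Week 3 arrays read 8.23, 8.23 and 7.40. Week 1 and week 2 overlapped with each other, and week 3 lay below both. The week 3 mean was 2.65 ± 0.28 (log2, SE) below control, or 6.28-fold, again the value that chose the gene, and week 1 and week 2 were 1.51 ± 0.22 and 1.09 ± 0.22 below the same control arrays. Week 3 was 1.56 ± 0.25 (log2, SE) below week 2. The second probe set of Gsta3 went the same way with a smaller size, 0.51 ± 0.10 (log2, SE) lower at week 3, and its values of 7.44 to 7.52 in control and 6.89 to 7.03 at week 3 all lay below the median of the array. The week 2 mean was 0.42 ± 0.19 above that of week 1 on the log2 scale.

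**Figure D1:**
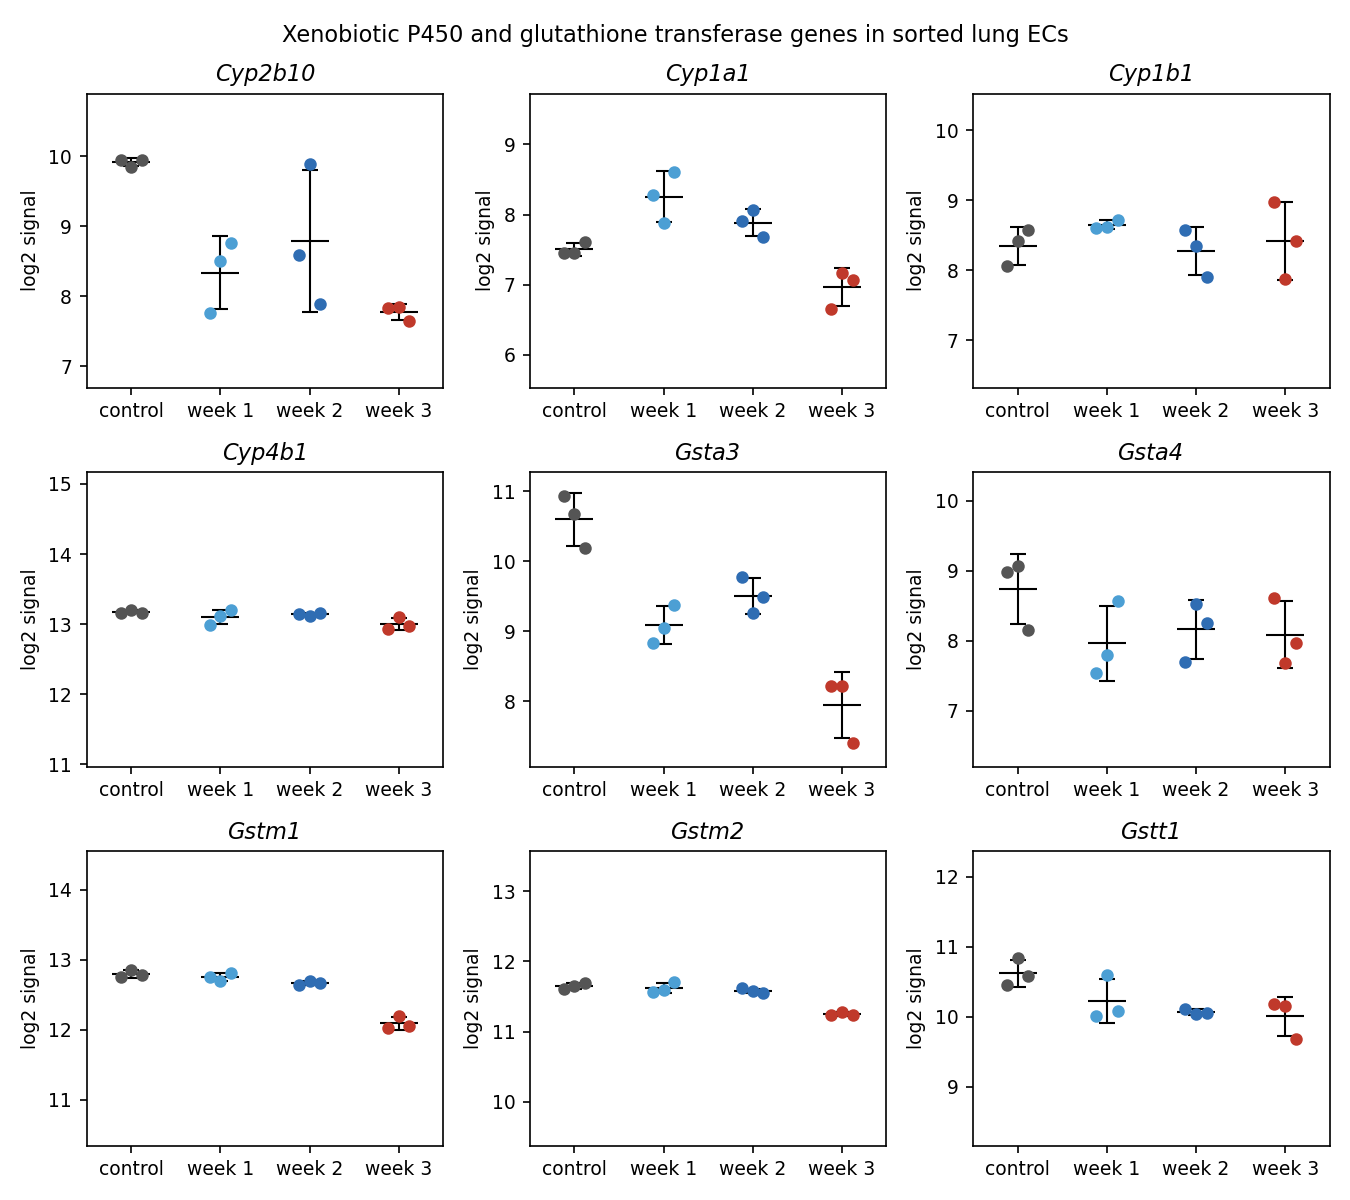
Log2 signal of each of the 9 genes (y axis, the same span of log2 units in every panel) in control and at weeks 1, 2 and 3 (x axis); each point is 1 array, and the black bars are the mean and SD of 3 arrays. Cyp2b10 and Gsta3 lie lowest at week 3, 1 week 2 array of Cyp2b10 stays at the control level of 9.89, Cyp1a1 is above control at weeks 1 and 2 and below it at week 3, and Cyp4b1 varies little around 13.

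Cyp1a1, the P450 that oxidises polycyclic aromatic hydrocarbons and the usual readout of Ahr activity, followed another course. Its control arrays read 7.45, 7.45 and 7.61, its week 1 arrays 8.28, 7.88 and 8.60, its week 2 arrays 7.91, 8.07 and 7.68 and its week 3 arrays 6.66, 7.16 and 7.07. All arrays of weeks 1 and 2 were above all control arrays, and all week 3 arrays were below them. The differences from control were 0.75 ± 0.19 at week 1 (log2, SE; adjusted p = 0.22, limma) and 0.38 ± 0.13 at week 2 (adjusted p = 0.36, limma), neither of which passed the threshold of 0.05. At week 3 the mean was 0.54 ± 0.15 below control and 0.92 ± 0.17 below week 2 (log2, SE). This probe set is dim, with a mean below the array median, and no other probe set of the gene was read.

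Cyp1b1, the second Ahr-induced P450 of the set, showed no such course. It read 8.06, 8.42 and 8.58 in control, 8.60, 8.62 and 8.73 at week 1, 8.57, 8.34 and 7.91 at week 2 and 8.98, 7.87 and 8.42 at week 3. Week 3 spread over more than a log2 unit and enclosed the other groups. The week 1 arrays lay just above control, by 0.30 ± 0.16 on the log2 scale (adjusted p = 0.63, limma), and the week 2 and week 3 means were within 0.08 of control on that scale. The 2 other probe sets of Cyp1b1 were dim, between 6.01 and 6.82 on all arrays. On the dimmer one the week 3 arrays, at 6.43 to 6.78, lay above control at 6.18 to 6.33, by 0.35 ± 0.13 (log2, SE). On the other, week 3 was 0.11 ± 0.24 above control (log2, SE) and overlapped with it.

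Cyp4b1, a P450 of lung that oxidises fatty acids and activates plant toxins, was nearly constant. Its 12 values lay between 12.93 and 13.20. The differences from control were -0.07 ± 0.12 at week 1 (adjusted p = 0.88, limma), -0.03 ± 0.09 at week 2 (adjusted p = 0.93, limma) and -0.17 ± 0.10 at week 3 (log2, SE). The 95% interval of the week 1 difference ran from -0.34 to 0.20 and that of week 2 from -0.24 to 0.18. The week 3 arrays, at 12.93, 13.10 and 12.97, lay below the 3 control arrays at 13.16 to 13.20.

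Of the mu class transferases, Gstm1 stayed close to its control mean through week 2 and was lower at week 3. It read 12.76, 12.86 and 12.78 in control, 12.75, 12.70 and 12.82 at week 1, 12.65, 12.69 and 12.66 at week 2 and 12.03, 12.20 and 12.05 at week 3. The week 3 arrays lay below all 9 others, and the week 3 mean was 0.70 ± 0.10 below control and 0.57 ± 0.10 below week 2 (log2, SE). Gstm2, whose start lies near that of Gstm1 on the same strand of chromosome 3, showed the same step at a smaller size. Its week 3 arrays read 11.23, 11.28 and 11.24 and all others lay between 11.55 and 11.71, and week 3 was 0.41 ± 0.10 below control (log2, SE). At weeks 1 and 2 both genes were within 0.13 of control on the log2 scale, with adjusted p-values of 0.68 to 0.95 in limma. Mu class genes are close in sequence, so probes for one may pick up another. The brighter of 2 other Gstm1 probe sets with names ending in _x_at, a mark of probes that can cross-hybridise, was 0.72 ± 0.10 below control at week 3 (log2, SE). The dimmer _x_at set was 0.45 ± 0.20 below and the last probe set 0.20 ± 0.13 below (log2, SE), both overlapping with control.

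Gstt1, the theta class transferase that acts on small halogenated compounds, was lower in most arrays of injected lungs without a further step at week 3. Control arrays read 10.45, 10.83 and 10.58, week 1 arrays 10.02, 10.59 and 10.09, week 2 arrays 10.11, 10.03 and 10.06 and week 3 arrays 10.18, 10.15 and 9.69. Weeks 2 and 3 lay below all control arrays, and week 1 overlapped with control through replicate 2. Against control, week 1 was 0.39 ± 0.19 lower (adjusted p = 0.60, limma), week 2 was 0.55 ± 0.12 lower (adjusted p = 0.19, limma) and week 3 was 0.61 ± 0.17 lower (log2, SE), and week 3 differed from week 2 by -0.06 ± 0.15. Gsta4, an alpha class transferase that removes aldehydes of lipid peroxidation, varied as much within groups as between them. It read 8.98, 9.06 and 8.16 in control, 7.54, 7.79 and 8.56 at week 1, 7.70, 8.53 and 8.26 at week 2 and 8.61, 7.68 and 7.96 at week 3, so that every group overlapped with every other. Its differences from control were -0.77 ± 0.32, -0.57 ± 0.30 and -0.65 ± 0.31 at weeks 1, 2 and 3 (log2, SE), and those of weeks 1 and 2 had adjusted p-values of 0.54 and 0.55 in limma.

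**Figure D2:**
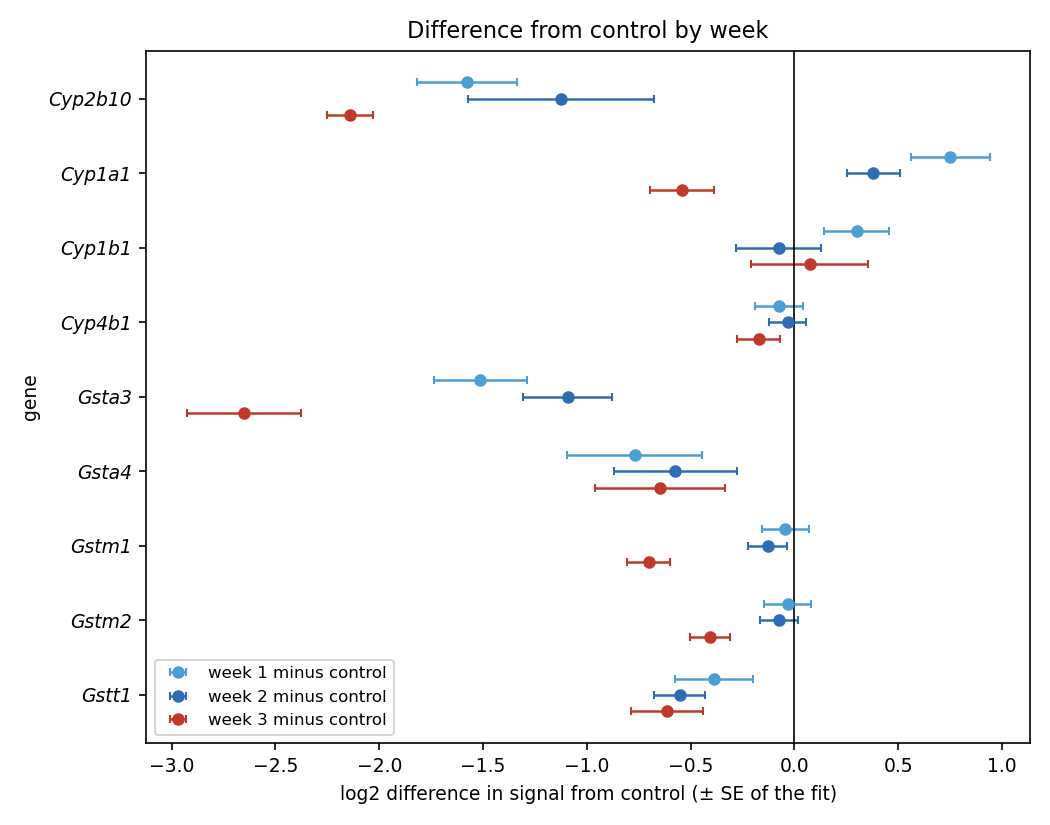
Log2 difference in signal from the mean of the 3 control arrays (x axis) for each gene (y axis) at weeks 1, 2 and 3; points are the fitted differences and bars their SE, and all weeks share the control arrays. Cyp2b10 and Gsta3 lie 1.09 or more below control at every week, Gstm1 and Gstm2 leave the zero line at week 3, and Cyp1a1 changes sides.

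The 9 genes thus ran in several courses, and the counts over them are given beside the share of all 45037 probe sets. At week 3, 8 of 9 means were below control, and the arrays of 7 genes lay entirely below control, as did 12.1% of all probe sets. In the limma comparison of week 3 with control, 2.33% of probe sets were called lower at an adjusted p below 0.05, Cyp2b10, Gsta3 and Gstm1 among them, and 1.95% higher, with none of the 9. With 1 of these 6 arrays left out, Gstm1 was called in only 1 of 6 fits. Those fits called 674 to 1032 of the 45037 probe sets, beside 1926 with all 6 arrays. In week 3 against week 2, Gsta3 and Gstm1 were among the 0.773% called lower and none was among the 1.05% called higher, and with any 1 of the 6 arrays left out neither was called. These left-out fits called 0 to 290 of all 45037 probe sets, beside 821 with all 6 arrays. The set was chosen with these comparisons known, and nothing is read from these counts. The median difference of the 9 genes at week 3 was -0.61 on the log2 scale, beside 0.02 over all probe sets.

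At week 1, none of the 9 genes was called by limma, beside 0.0311% of probe sets called lower and 0.00444% called higher. With Cyp2b10 and Gsta3 set aside, unadjusted p-values were below 0.05 for Cyp1a1 and Gsta4, and for 4122 of 45037 probe sets. Cyp2b10 and Gsta3 had all week 1 arrays below control, as did 7.07% of probe sets, and Cyp1a1 and Cyp1b1 had them all above, as did 7.97%. At week 2, none was called by limma, beside 0.102% called lower and 0.0555% called higher. Again without Cyp2b10 and Gsta3, unadjusted p-values were below 0.05 for Cyp1a1 and Gstt1, and for 4913 probe sets. The arrays of Gsta3, Gstm1 and Gstt1 lay entirely below control at week 2, as did those of 7.08% of probe sets, and those of Cyp1a1 entirely above, as did 9.69%. Median differences of the 9 genes were -0.07 at week 1 and -0.13 at week 2, beside 0.03 and 0.02 over all probe sets (log2). In week 2 against week 1, limma called none of the 9 and 0% of probe sets, and unadjusted p-values below 0.05 came to 0 of 9 genes and 3257 probe sets. The differences of the 9 genes there lay between -0.38 and 0.45 (log2), and all week 2 arrays of Cyp1b1 and Gstm1 lay below those of week 1, as did 6.28% of probe sets.

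Listed markers of alveolar, club and secretory airway, fibroblast and mural cells had lower list means in every array of injected lungs than in control arrays. In the limma comparison of week 3 with control, 5 of 8 listed markers of alveolar type 1 cells were lower, beside 2.33% of all probe sets, and none was higher, beside 1.95%, and the 5 included Ager at -1.81 ± 0.17 (log2, SE; adjusted p = 0.0039). With 1 array left out, the calls of Ager and Spock2 were kept in all 6 fits, that of Rtkn2 in 3, that of Aqp5 only without week 3 replicate 1 and that of Akap5 only without week 3 replicate 2. The mean log2 signal of that list was 10.39 to 10.50 in control arrays, 9.53 to 10.01 at week 1, 9.60 to 10.35 at week 2 and 9.35 to 9.60 at week 3. For alveolar type 2 cells 4 of 8 were lower and none higher, with list means of 11.22 to 11.33 in control, 9.84 to 10.66, 9.91 to 11.05 and 10.37 to 10.78 at weeks 1, 2 and 3. Of these type 2 calls that of Slc34a2 was kept in all 6 fits with 1 array left out, and those of Sftpc, Sftpa1 and Napsa only without week 3 replicate 1. Of the 14 club and secretory airway markers 5 were called lower, none was called higher and 9 were not called. The 5 were Cyp2f2, Sec14l3, Aldh1a1, Cbr2 and Selenbp1. List means were 9.41 to 10.44 in control, and 8.58 to 8.69, 8.20 to 9.08 and 8.55 to 8.96 at weeks 1, 2 and 3. Cyp2f2, the P450 of club cells, was 2.20 ± 0.46 lower at week 3 (log2, SE; adjusted p = 0.048, limma), while the defining secretory genes Scgb1a1 and Scgb3a2 were 1.46 ± 0.34 (adjusted p = 0.063) and 1.19 ± 0.72 (adjusted p = 0.41) below control. The Cyp2f2 call was kept only without control replicate 1, and the other calls of that list in all 6 fits with 1 array left out. Fibroblast markers were lower for 7 of 13 and higher for none, with list means of 11.54 to 11.61 in control, 10.91 to 11.03, 10.50 to 10.82 and 10.73 to 10.91, and Pdgfra was 2.25 ± 0.23 (log2, SE) lower at week 3 (adjusted p = 0.0046, limma). Its call was kept in all 6 fits with 1 array left out, as were those of Dcn, Tcf21, Npnt and Fbln1, while that of Inmt was lost without control replicate 2 and that of Mfap4 was kept in 2. Among markers not called, Col1a1, Col1a2, Col3a1 and Plin2 were at 0.18 ± 0.16, -0.004 ± 0.11, -0.06 ± 0.11 and 0.21 ± 0.11 from control. Lum and Pi16 were at -0.31 ± 0.10 and -0.36 ± 0.13 (log2, SE). In week 3 against week 2, Col1a1 was 1.29 ± 0.14 higher (log2, SE; adjusted p = 0.018, limma), a call kept in 1 of 6 left-out fits. In week 3 against week 2, where Cyp2b10 and Gsta3 were lower still, the type 1 list mean differed by -0.40 (log2). The type 2, club and secretory and fibroblast list means differed by 0.12, 0.08 and 0.13. None of 12 pan-endothelial and none of 8 general capillary markers was called at week 3 against control. Their list means stayed within 12.84 to 12.99 and 12.95 to 13.07 over all arrays.

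The array of Cyp2b10 that stood apart stood apart in alveolar markers too. In week 2 replicate 2, Cyp2b10 was 0.02 below its control mean, and the alveolar type 1 and type 2 lists were 0.10 and 0.23 below theirs on the log2 scale. In the other week 2 arrays Cyp2b10 was 1.33 and 2.02 below control, the type 1 list 0.85 and 0.75 below and the type 2 list 0.97 and 1.36 below. Gsta3 did not share this: it was 1.34 below its control mean in replicate 2, lower than the 0.83 and 1.11 of the other week 2 arrays. The fibroblast list in replicate 2 was 0.76 below control and the club and secretory list 0.90 below, between the values of replicates 1 and 3 in the latter list. The part of these cells in the result for Cyp2b10 and Gsta3 was not tested, and in RNA from a sorted population fewer cells of a type and less RNA per cell cannot be told apart. Remaining lists at week 3 showed 2 of 11 mural markers lower, 1 of 8 ciliated markers lower, 1 of 10 leukocyte markers lower and 1 higher, 1 of 7 venous and 1 of 6 aerocyte markers higher, and none of the 8 arterial, 6 lymphatic, 5 mesothelial and 6 platelet markers called. Of these calls only that of the leukocyte marker Cd68 was kept in all 6 fits with 1 array left out. The mural list mean was 9.55 to 9.71 in control, and 8.73 to 8.93, 8.72 to 8.89 and 8.99 to 9.11 at weeks 1, 2 and 3. The leukocyte and platelet list means were 0.04 and 0.003 above control at week 3 (log2). In week 3 against week 2, the mural, leukocyte and platelet list means were 0.23, 0.55 and 0.30 higher, and the aerocyte and arterial ones 0.05 and 0.04 lower. Limma called Acta2, Fcer1g and Apln higher there, of which Acta2 and Fcer1g were kept in 1 of 6 left-out fits and Apln in 0. The excess of 3′ over 5′ signal of the Gapdh control probe sets, a measure of RNA quality, was 0.37 to 0.69 in control, 0.42 to 0.53 at week 1, 0.30 to 0.41 at week 2 and 0.24 to 0.40 at week 3 (log2), and its part in the results was not tested.

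**Figure D3:**
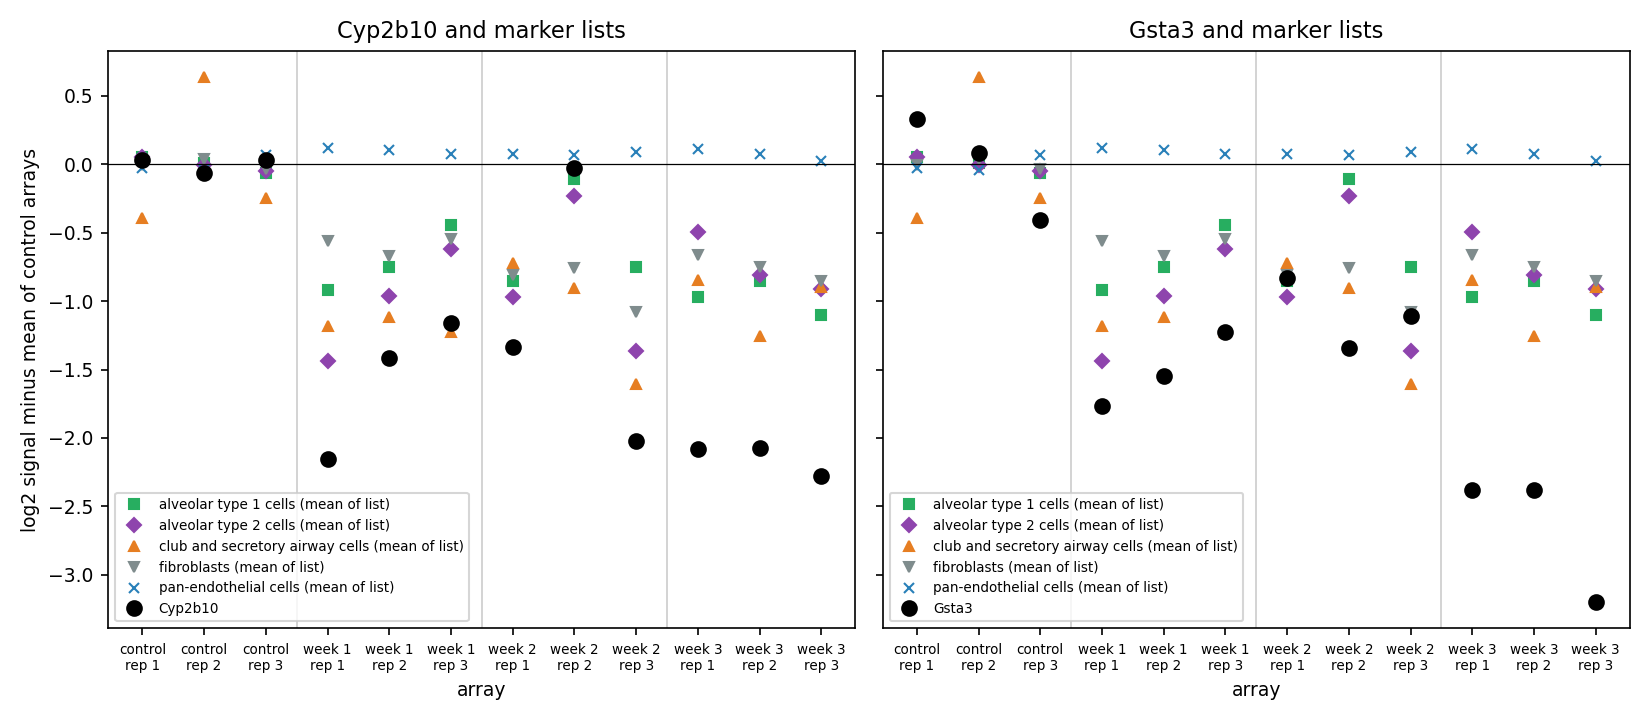
Log2 signal minus the mean of the control arrays (y axis) in each of the 12 arrays (x axis) for Cyp2b10 (left, black) or Gsta3 (right, black) and for the means of 5 marker lists. Pan-endothelial markers stay near zero in all arrays, Cyp2b10 and the alveolar lists return toward zero together in week 2 replicate 2, and Gsta3 does not.

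The genes with the pattern most like Cyp2b10 over the 12 arrays, by the root mean square of the log2 differences after each gene was centred on its own mean, were Cldn18 (0.27), Sec14l3 (0.28), Itga8 (0.29), Ager (0.29) and Mal2 (0.30), beside a median of 0.95 over the 18192 other genes. Ager stands on the alveolar type 1 list and Sec14l3 on the club and secretory list, and in week 2 replicate 2 Cldn18 read 11.05, Sec14l3 10.21 and Ager 11.35, each the highest of its week 2 arrays. These genes were picked for closeness to Cyp2b10 over these same arrays, so their values there are no separate finding. Nearest to Gsta3 were Mettl7a1 (0.40), Gsn (0.41), Adcy8 (0.41), Mme (0.41) and Col4a3 (0.42), beside a median of 1.02. Cyp2b10 and Gsta3 were at 0.59 from each other. Of the other genes, 60 were nearer to Gsta3 than Cyp2b10 was, and 116 were nearer to Cyp2b10 than Gsta3 was. Both genes were chosen for a large fall over these same arrays, and the measure does not scale genes to a common size. Their closeness beside the median of all genes can follow from that choice, and nothing is read from it. The same measure put Gstm1 at 0.77 and Gstt1 at 0.80 from Gsta3, and Cyp1b1 at 1.09.

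Few other P450 and transferase genes were called at week 3. Of 44 other P450 and P450-partner genes that were read (53 listed), week 3 against control called 2 lower and none higher in limma, beside 2.33% and 1.95% of all probe sets, and the median difference was 0.02 (log2), the same as over all probe sets. The 2 were Cyp2f2 and Cyp2e1, the ethanol-oxidising P450, which read 8.68, 7.91 and 8.23 in control and 6.80, 6.59 and 6.66 at week 3 and was 1.59 ± 0.20 lower (log2, SE; adjusted p = 0.0085). Of 19 other transferase genes read (21 listed), 2 were lower and none higher at week 3, with a median of 0.02. These were Gstk1, the kappa class enzyme of mitochondria and peroxisomes (-0.86 ± 0.10, adjusted p = 0.0074), and Mgst1, a transferase of the endoplasmic reticulum (-0.73 ± 0.11, adjusted p = 0.019; log2, SE, limma). Gstk1 read 11.17, 11.08 and 11.01 in control and 10.21, 10.22 and 10.26 at week 3, with weeks 1 and 2 between these at 10.49 to 10.85. The calls of Cyp2e1 and Gstk1 were kept in all 6 fits with 1 array left out, that of Mgst1 in 2 (the fits lacking control replicate 3 or week 3 replicate 2), and that of Cyp2f2 in the fit without control replicate 1 alone. In week 3 against week 2, limma called 1 transferase, Gsto1, which was 0.83 ± 0.10 higher at week 3 (log2, SE; adjusted p = 0.021), and the call was lost without any 1 of the arrays. Over all probe sets those left-out fits called 0 to 290, beside 821 with all arrays. No gene of either list was called by limma at week 1 or week 2 against control, where unadjusted p-values were below 0.05 for 3 and 4 of the P450 genes and for 3 and 4 of the transferase genes.

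Among 24 receptors and regulators read (25 listed), 1 was lower and none higher at week 3 in limma, beside 2.33% and 1.95% of all probe sets, with a median of -0.15 (log2). It was Tiparp, an Ahr target that encodes an ADP-ribosyltransferase and restrains Ahr. Tiparp read 11.40, 11.24 and 11.21 in control, 10.45, 10.49 and 10.55 at week 1, 10.87, 11.13 and 11.16 at week 2 and 10.25, 10.38 and 10.36 at week 3. It was low at weeks 1 and 3 and close to control at week 2. The differences from control were -0.78 ± 0.12 at week 1 (adjusted p = 0.064), -0.23 ± 0.12 at week 2 (adjusted p = 0.56) and -0.96 ± 0.11 at week 3 (log2, SE; adjusted p = 0.0063, limma), so that at week 1 Tiparp and Cyp1a1 lay on opposite sides of control and at week 3 on the same side. Ahrr, the Ahr repressor and another Ahr target, was 0.48 ± 0.15 below control at week 3 (adjusted p = 0.13, limma) from a dim probe set, and Ahr itself stayed between 12.67 and 12.88 on all arrays. Cebpa, a transcription factor of lung epithelium and liver, was called lower at week 1, by 1.60 ± 0.15 (log2, SE; adjusted p = 0.039, limma), and was not called at week 2 or 3. The week 3 call of Tiparp was kept with each of the 6 arrays left out, and the week 1 call of Cebpa was lost without any 1 of the arrays. The week 1 left-out fits called 0 to 21 of all 45037 probe sets, beside 16 with all arrays. In week 3 against week 2, limma called Tiparp at -0.72 ± 0.12 (log2, SE; adjusted p = 0.036) and Maff, a partner of Nfe2l2, at -0.68 ± 0.12 (adjusted p = 0.042), and both calls were lost without any 1 of the arrays. The left-out fits there called 0 to 290 of all probe sets, beside 821 with all arrays. Nr1i3 and Nr1i2, the receptors for drug induction, read 6.84 to 7.19 and 7.17 to 7.74, below the array median throughout. Nfe2l2 was 0.15 ± 0.10 below control at week 3 (adjusted p = 0.47), and Nqo1, its target, 0.26 ± 0.23 below (adjusted p = 0.58, limma).

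Of 61 other phase 1 and phase 2 enzyme genes read (67 listed), 10 were lower and 2 higher at week 3 in limma, beside 2.33% and 1.95% of all probe sets, with a median of -0.10 (log2). With 1 array left out, 4 to 8 of the 61 were called. Akr1b8, an aldo-keto reductase, rose: it read 7.85, 8.05 and 7.76 in control, 7.58 to 8.68 at weeks 1 and 2 and 9.99, 10.01 and 10.54 at week 3, 2.29 ± 0.18 above control (log2, SE; adjusted p = 0.0018). The other riser was the arylamine acetyltransferase gene Nat2, at 0.61 ± 0.11. The largest decreases were of Cbr2, a carbonyl reductase (-2.29 ± 0.22, adjusted p = 0.0042), Aldh1a1, a retinaldehyde dehydrogenase (-1.70 ± 0.15, adjusted p = 0.0030), and Pon1, a lactonase (-1.67 ± 0.35, adjusted p = 0.046; log2, SE, limma). The calls of Akr1b8, Cbr2 and Aldh1a1 were kept in all 6 fits with 1 array left out, that of Nat2 in none and that of Pon1 only without week 3 replicate 2. In week 3 against week 2, limma called Akr1b8 higher, at 2.07 ± 0.29, and the carboxylesterase gene Ces2g lower, at -0.77 ± 0.10 (log2, SE), of which Akr1b8 was kept only without week 2 replicate 2 and Ces2g in no fit with 1 array left out. Cbr2, Aldh1a1 and Cyp2f2 also stand on the club and secretory list and Inmt, another of the 10, on the fibroblast list, so that these counts and the marker counts are not separate. Of 20 transporters read (22 listed), only Slc22a5, the carnitine transporter, was called at week 3, by -0.80 ± 0.12 (log2, SE; adjusted p = 0.018, limma), and the call was kept in 2 of 6 fits, those lacking control replicate 3 or week 3 replicate 3.

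**Figure D4:**
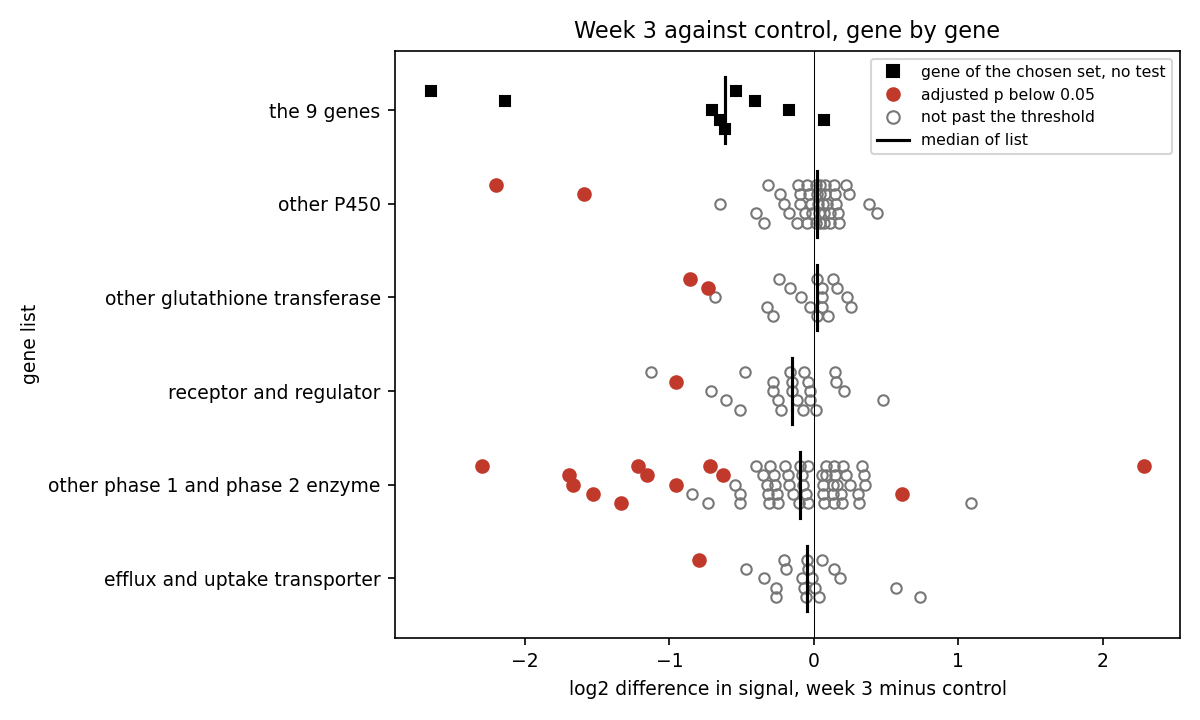
Log2 difference in signal at week 3 against control (x axis) for each gene of the set and of 5 pathway lists (y axis); red points passed an adjusted p below 0.05 in limma, open points did not, black squares are the 9 chosen genes, with calls not shown, and vertical bars are list medians. Most points of the other P450 and transferase lists lie near zero, with 2 decreases called in each.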

How the data were processed

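The authors hybridised total RNA of sorted lung ECs to Affymetrix mouse genome arrays after amplification from picogram amounts, and normalized the CEL files by robust multiarray average in Chipster. The deposited values are log2 signals, 1 per probe set and array, and were used as deposited. The number of arrays, not a read depth, limits the precision. Of 45101 probe sets, 64 array controls were set aside and 45037 were tested, of which 34945 carry 1 gene symbol, 932 several and 9160 none in the platform annotation. Symbols were checked against RefSeq by Entrez ID. No filter on low values was applied, so all 9 genes and all probe sets were tested. Nothing in the labels says how many mice gave 1 array.

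Pairs of groups were fitted separately in limma (version 3.58.1, under R 4.3.3, default empirical Bayes settings, two-sided), since the methods name a 2-group empirical Bayes test, and p-values were adjusted by Benjamini-Hochberg over the 45037 probe sets. The 9 genes and the gene lists were chosen with earlier results of these data known. For this reason no p is given for the 9 genes in comparisons with week 3, nor for Cyp2b10 and Gsta3 in comparisons with control. Counts of calls include these genes, and nothing is read from their calls in those comparisons. Named beside the 9 genes were up to 4 genes of each pathway list with the largest called difference at week 3 whose arrays did not overlap with control, the receptors and markers set beforehand in the lists, and the 5 genes nearest in pattern to Cyp2b10 and to Gsta3. Cebpa, Maff, Gsto1, Ces2g, Nat2 and Inmt were named after their values were seen. The fit was tested on simulated data. Alternatives were 1 fit over all groups, the replicate number as a block, leaving out each array, a second quantile normalization, centring on array medians, leaving out dim probe sets, leaving out _x_at and _s_at probe sets, the mean of all probe sets of a gene, and a trended and robust variance. The other probe sets of the 9 genes were added after seeing the data.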

Additional observations from a re-analysis of the deposited data

Results flagged for a closer look

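Cyp1a1 was 0.75 above control at week 1 and 0.38 above at week 2 and lay 0.54 below at week 3 (week 3 minus control -0.54, log2), and every array of each week was on its side of the control mean. The difference between these effects was not tested, since the gene was chosen with week 3 in view.

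The effects of week 2 and week 3 differed by the limma comparison of week 3 with week 2 for 2 other named genes, Akr1b8, at 2.07 (log2), and Tiparp, at -0.72 (log2), with adjusted p-values of 0.027 and 0.036. Neither call was kept with the replicate number as a block, a fit that called 0 of all 45037 probe sets in this comparison. With 1 array left out, Akr1b8 was called in 1 of 6 fits and Tiparp in 0 of 6. Those fits called 0 to 290 of all probe sets, beside 821 with all arrays.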

How the results depend on the processing

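The 2 rescalings of the arrays and the fit without _x_at and _s_at probe sets left every count of the 9 genes and of the 5 pathway lists within 1.5 times of its value. Depth does not apply to arrays: dim probe sets (Cyp1a1, Ahrr, Nr1i3) limit what can be read at their level. Other fits changed counts, and the cause was not tested. Calls over all features tested are given first, in the order of the fits below. These fits tested 45037, 24683, 18193 and 45037 features. At week 1 they called 311, 234, 181 and 335 (16 in the 2-group fit), and at week 2 179, 154, 134 and 195 (71). Week 3 against control gave 2757, 2136, 1426 and 2512 (1926). Week 3 against week 2 gave 1280, 1214, 713 and 1583 (821). With all groups in one fit, week 1 against control called 1 of the 9 genes (0 in the 2-group fit), 1 other P450, 1 other transferase, 3 regulator (1 in the 2-group fit) and 1 phase 1 and 2 enzyme gene; week 2 against control called 1, 2 and 1 P450, transferase and enzyme genes (0 each in the 2-group fit); week 3 against control called 4 regulators (1) and 2 transporters (1); and week 3 against week 2 called 2 transferases (1) and 5 enzymes (2). Without dim probe sets the counts were 2 of the 9 genes, 3 regulators and 2 enzymes at week 1, 2 transferases and 1 enzyme at week 2, 1 P450 and 2 regulators at week 3, and 2 transferases and 5 enzymes in week 3 against week 2. With the mean of all probe sets they were 2 of the 9 genes, 2 P450 genes, 3 regulators and 2 enzymes at week 1, 1 P450, 1 transferase and 1 enzyme at week 2, 2 regulators at week 3, and 2 transferases and 6 enzymes in week 3 against week 2. With a trended and robust variance they were 2 of the 9 genes, 1 P450, 2 regulators and 2 enzymes at week 1, 1 P450, 1 transferase and 3 enzymes at week 2, 2 regulators at week 3, and 4 of the 9 genes, 3 transferases and 8 enzymes in week 3 against week 2. Calls of the 9 genes beyond those of the 2-group fit were Cyp2b10 and Gsta3 at week 1, Gstm2 in 3 of these fits at week 3 against control, and Cyp1a1 in 3 and Gstm2 in 1 in week 3 against week 2. The week 1 calls of Cyp2b10 and Gsta3 use the control arrays that chose them, so nothing is read from those calls. No call of a gene chosen at week 3 is read as stability.

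Replicate numbers did not pair the arrays (deviations of same-numbered arrays from their group means correlated at -0.10 to 0.06 over 18 pairs). The fit with the replicate block called no regulator (0) at week 1, and at week 3 against control 2 of the 9 genes (Gstm1 was lost), 1 other P450, 1 transferase, 7 enzymes, 0 transporters and 16 marker genes (28 without the block). In week 3 against week 2 the replicate block left 0 of the 9 genes, 0 transferases, 0 regulators and 0 enzymes. There it called 0 of all 45037 probe sets, beside 821 without the block. It also called 0 of all probe sets at weeks 1 and 2 against control, and 783 at week 3 against control (1926 without it). These losses therefore do not single out the listed genes.

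With 1 array left out, calls at week 3 against control ranged from 2 to 3 of the 9 genes, 1 to 2 P450 genes, 1 to 2 transferases, 1 to 2 regulators, 4 to 8 enzymes, 0 to 1 transporters and 13 to 22 marker genes. In week 3 against week 2 they were 0 to 0 for the 9 genes, transferases and regulators and 0 to 1 for enzymes, and at week 1 they were 0 to 0 for regulators and 0 to 1 for enzymes. Calls over all 45037 probe sets fell as well, to 674 to 1032 at week 3 against control (1926 with all arrays). In week 3 against week 2 they fell to 0 to 290 (821 with all arrays).

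Of 665 differences of the 9 genes under all alternatives, 21 had the other sign, 8 of them in comparisons with week 3, and 0 of the 21 concerned a difference called in the 2-group fit. Cyp1b1 at week 2 against control changed from -0.08 to 0.0384 with the mean of its probe sets and to 0.141 and 0.0495 on its other probe sets, and ranged from -0.23 to 0.11 with 1 array left out. In week 2 against week 1, Gsta3 was -0.12 on its second probe set, and Gstm1 was 0.12 with the mean of probe sets and 0.66 on 1 _x_at set. With 1 array left out of that comparison, Cyp2b10 ranged from -0.10 to 0.90, Cyp4b1 from -0.0122 to 0.0909, Gsta4 from -0.0165 to 0.496, Gstm2 from -0.0684 to 0.0013 and Gstt1 from -0.273 to 0.0155. Cyp1b1 reached -0.20 in week 3 against control (0.07 in the 2-group fit), and in week 3 against week 2 Cyp1b1 reached -0.13, Gsta4 0.13 and Gstt1 0.10 under an alternative (0.15, -0.07 and -0.06 in the 2-group fit). Gsta3's week 3 value was -1.58 with the mean of both probe sets (-2.65 on the brighter one).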
